A study of Rattus norvegicus with 10 samples.

Results

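The expression of 10 genes of astrocyte identity and reactivity was followed in the spinal cord of rats made tolerant to morphine. They were the filament genes Gfap and Vim, the astrocyte genes Aqp4, S100b, Aldh1l1 and Gja1, and the reactivity genes Serpina3n, Lcn2, Cd44 and Steap4. A gene's RNAs were found by matching the RefSeq mRNA accession of each probe to these 10 genes, whatever the measured values. Of the 10 genes, 8 had a probe under this rule, with 9 RNAs among the 15313 mRNA accessions of the array, because Aqp4 was represented by 2 accessions. No probe was matched to Aldh1l1 or Serpina3n, and both were not analysed here. Each of the 9 RNAs had 1 probe and 1 spot per array.

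The samples were total RNA from the lumbar enlargement of male Sprague Dawley rats weighing 240 to 260 g, with 1 one-colour array per rat. The 5 rats of the morphine tolerance (MT) group, numbered 1 to 5, had received 10 μg of morphine in 10 μl intrathecally 2 times a day for 7 days. The 5 rats of the normal saline (NS) group, numbered 6 to 10, had received 10 μl of saline on the same schedule, so both groups carried the intrathecal injections, and no uninjected rat was analysed here. By the study's methods, a further morning injection of morphine or saline followed on the day of tissue collection, 1 hour before anesthesia. The comparison asks how gene expression differed after repeated intrathecal morphine with this last dose included. Effects of the last dose and of the repeated dosing cannot be told apart here.

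Astrocytes are the glial cells that buffer potassium and transmitter, supply neurons with metabolites and wrap vessels and synapses in the spinal cord. When tissue is injured or inflamed, they become reactive: they enlarge, build more intermediate filament and turn on acute phase and immune genes under cytokines such as IL-6, IL-1 and TNF, which act largely through STAT3, C/EBP and NF-kB. Spinal astrocytes are among the glia that have been studied in opioid tolerance.

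Arrays that shared a scan time in the scanner records were taken as 1 slide. Slide 1 held MT rats 1, 3, 4 and 5, slide 2 held MT rat 2 with NS rats 6, 7 and 10, and slide 3 held NS rats 8 and 9. Slide 3 stood apart. The share of spots well above background was 58.6% and 63.8% on its 2 arrays and 77.4% to 83.9% on the other 8. Values below are quantile-normalized log2 intensities, and values that slide 3 moved most are given with and without its rats. No spot was saturated on any array, and all 9 astrocyte RNAs were well above background on all 10 arrays. Markers of other cells of the cord, such as the neuronal gene Rbfox3 and the oligodendrocyte gene Cnp, were measured on the same arrays, so the RNA is that of whole tissue. In such tissue, fewer astrocytes and less RNA per astrocyte cannot be told apart.

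The promoters of Lcn2 and Steap4 are shown because these are the 2 measured reactivity genes whose RefSeq promoter window matched the cytokine-driven motifs searched. Both windows end at the first base of the gene in RefSeq, GRCr8, and are written 5′ to 3′ along the gene, with capitals marking the motif matches. The Lcn2 window is the 179 bases of chr3:36081852-36082030 on the minus strand, and the Steap4 window is the 250 bases of chr4:27054770-27055019 on the minus strand.
Lcn2: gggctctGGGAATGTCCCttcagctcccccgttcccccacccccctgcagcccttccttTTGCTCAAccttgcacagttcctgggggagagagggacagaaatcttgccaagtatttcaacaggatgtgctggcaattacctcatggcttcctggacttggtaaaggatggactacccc
Steap4: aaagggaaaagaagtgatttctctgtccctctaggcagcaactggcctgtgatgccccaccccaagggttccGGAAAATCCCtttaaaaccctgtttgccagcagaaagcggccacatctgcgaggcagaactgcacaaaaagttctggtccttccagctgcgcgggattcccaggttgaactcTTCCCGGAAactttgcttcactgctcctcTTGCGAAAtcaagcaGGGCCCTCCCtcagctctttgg

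In Lcn2, the first run of capitals holds 2 overlapping NF-kB matches that start 172 and 171 bases before the gene, and the second is a C/EBP match at 120 bases. In Steap4, NF-kB matches start 178 and 22 bases before the gene, a STAT match at 66 bases and a C/EBP match at 37 bases. The motifs were searched on both strands as TTCNNNGAA for STAT, TTGCNNAA for C/EBP, TGANTCA for AP-1 and, for NF-kB, GGGA and CC with 4 free bases between them. Among 33469 RefSeq promoter windows of 250 bases, 7.67% held a STAT match, 9.22% a C/EBP match, 16.4% an NF-kB match and 6.34% an AP-1 match. In their own windows Vim had an NF-kB match, Serpina3n a STAT and an NF-kB match and Gja1 an AP-1 match. One of the Aqp4 windows also held an NF-kB match. Gfap, S100b, Cd44 and Aldh1l1 had none of these letters in theirs. These other windows were not cut at the first base of the gene. The Cd44 window and the other Aqp4 window lay wholly inside the gene, so the bases before Cd44 were not searched. The Gja1 match also lay inside its gene. A match is a description of the sequence and not a measured binding site.

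None of the 8 astrocyte genes differed between MT and NS by the study's criteria, read here as a linear fold over 1.5 in either direction and an unadjusted limma P under 0.05. Over all 13373 mRNAs tested, 2.6% passed these criteria. The 9 differences ran from -0.26 for Gja1 to 0.39 for Vim on the log2 scale, 5 of them positive and 4 negative. None of the 9 RNAs passed an adjusted p of 0.05 in limma, where 0.232% of all mRNAs did, and the smallest adjusted p was 0.195. At an unadjusted P below 0.05, Gja1 and Vim were called by limma, against 16.8% of all mRNAs. The methods' t-test called Gja1 and Gfap at that threshold and not Vim. In no astrocyte RNA did the groups lie apart without overlap, which 5.79% of all mRNAs did. The 95% confidence intervals of limma reached from 0.622-fold to 1.70-fold at their widest, and for 6 of the 9 RNAs the interval lay within 1.5-fold in both directions. In this fit a larger change was outside the interval for these 6, and for Vim, S100b and Lcn2 it was not. The fit holds no slide term, so its intervals do not cover differences between slides and exclude no change in size.

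**Figure D1:**
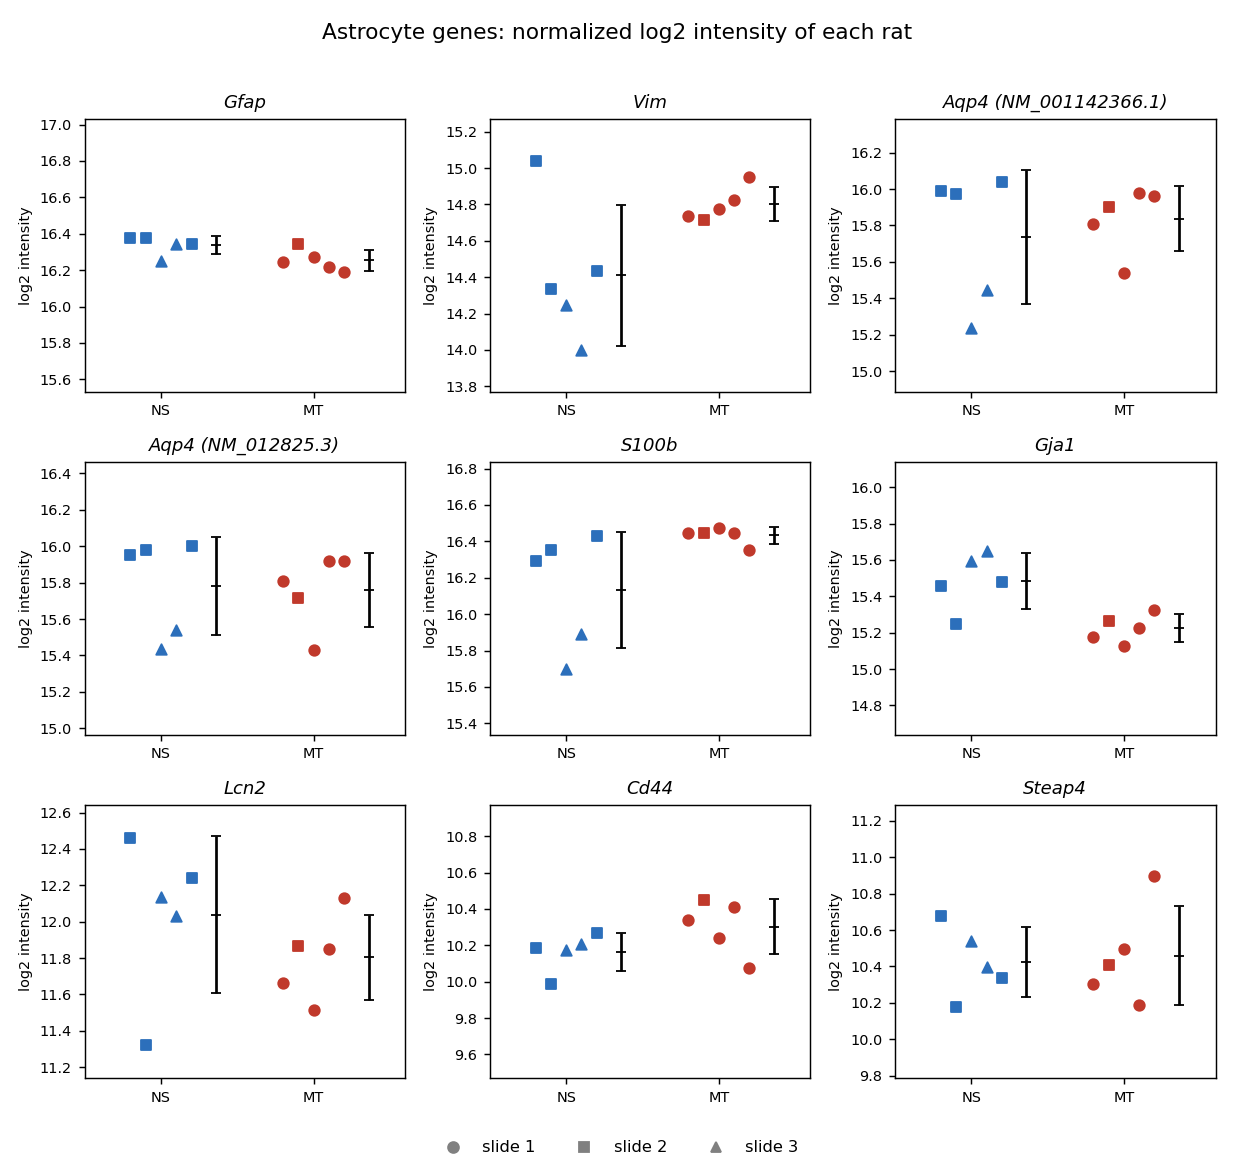
Normalized log2 intensity (vertical axis, with its own range in each panel) of the 9 astrocyte RNAs in the 5 NS rats (blue) and the 5 MT rats (red), with the shape of a point giving the slide and the bar the mean and SD of a group. The groups overlap in every panel, and the 2 triangles, NS rats 8 and 9 of slide 3, lie low in both Aqp4 panels and in S100b.

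Gfap encodes the glial fibrillary acidic protein, the main intermediate filament of astrocytes, and its rise is the usual sign of reactivity. It lies at chr10:88352987-88361661 in GRCr8, as do the other positions given here. Its log2 intensities were 16.24, 16.34, 16.27, 16.22 and 16.19 in MT rats 1 to 5 and 16.38, 16.38, 16.25, 16.34 and 16.34 in NS rats 6 to 10. MT rats 1, 4 and 5 were below every NS rat, whereas MT rats 2 and 3 lay within the NS range. The MT mean was 16.25 ± 0.06 (SD, n = 5) and the NS mean 16.34 ± 0.05 (SD, n = 5), a difference of -0.08 ± 0.06 (SE) with an adjusted p of 0.494 in limma. The interval was 0.862-fold to 1.03-fold, the narrowest of the 9. Gfap ranked between 32 and 45 among the RNAs kept on each array. There quantile normalization gave MT rat 2 and NS rats 9 and 10 the same value. Scaled to the 75th percentile of each array instead, the difference was 0.09 (unadjusted P = 0.495 in limma). The side on which Gfap lay thus depended on the scaling. Without slide 3 it was -0.11.

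Before normalization, the Gfap spot read 45361 and 41297 intensity units on the 2 arrays of slide 3 and 88508 to 103530 on the other 8. Quantile normalization brought these 2 arrays to 16.25 and 16.34, beside 16.34 to 16.38 in the other 3 NS rats. The spots of S100b read 34487 and 31123 units on slide 3 and 95092 to 113271 elsewhere, and after normalization the 2 rats of slide 3 were still the lowest.

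Vim encodes vimentin, an intermediate filament of reactive and immature astrocytes that endothelial cells, fibroblasts and ependymal cells also make. It lies at chr17:81577261-81585746. The values were 14.74, 14.71, 14.78, 14.83 and 14.95 in the MT rats and 15.04, 14.34, 14.25, 14.00 and 14.43 in the NS rats. All 5 MT rats were above 4 of the NS rats, whereas NS rat 6 was the highest of all 10. The difference was 0.39 ± 0.17 (SE), a fold of 1.31, with an adjusted p of 0.288 in limma. The exact two-sided permutation test over the 252 splits into 5 and 5 rats, which cannot go below 0.00794, gave p = 0.0556.

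The Vim difference turned on a few arrays, and its unadjusted P stayed below 0.05 in limma without NS rat 6 but not with any other single rat left out. Without NS rat 6 it was 0.55, the value with the smallest adjusted p among the alternatives. Without NS rats 8 and 9 of slide 3 it was 0.20, with an adjusted p of 0.515 in limma. Within slide 2, MT rat 2 exceeded the mean of NS rats 6, 7 and 10 by 0.11. Over the 22 alternatives run, the adjusted p of Vim in limma lay between 0.0791 and 1.00.

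Aqp4 encodes aquaporin-4, the water channel of astrocyte endfeet, and lies at chr18:6782389-6799034. The probe for NM_001142366 gave 15.81, 15.90, 15.54, 15.98 and 15.96 in the MT rats and 15.99, 15.97, 15.24, 15.45 and 16.04 in the NS rats. The probe for NM_012825 gave 15.81, 15.71, 15.43, 15.92 and 15.92 in the MT rats and 15.95, 15.98, 15.44, 15.54 and 16.00 in the NS rats. With both probes MT rat 3 and NS rats 8 and 9 were the lowest, and the groups overlapped. The differences were 0.10 ± 0.17 (SE, adjusted p = 0.792 in limma) and -0.02 ± 0.14 (SE, adjusted p = 0.945 in limma). Without slide 3 both were negative, at -0.16 and -0.22, with adjusted p of 0.436 and 0.344 in limma.

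S100b encodes a calcium-binding protein of mature astrocytes, also made by some oligodendrocytes and Schwann cells, and lies at chr20:12372345-12381159. The values were 16.44, 16.44, 16.48, 16.44 and 16.35 in the MT rats and 16.29, 16.35, 15.70, 15.89 and 16.43 in the NS rats. The MT rats covered a 1.09-fold range, and among the NS rats, rats 8 and 9 lay below the other 3. The difference was 0.30 ± 0.14 (SE), a fold of 1.23, with an adjusted p of 0.317 in limma and an exact permutation p of 0.0238. Without slide 3 the difference was 0.07 (95% interval -0.07 to 0.22, adjusted p = 0.549 in limma).

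Gja1 encodes connexin 43, the channel protein of the gap junctions that couple astrocytes, and lies at chr20:36302490-36315010. The values were 15.17, 15.27, 15.13, 15.23 and 15.33 in the MT rats and 15.46, 15.25, 15.59, 15.65 and 15.48 in the NS rats. NS rat 7 lay inside the MT range, and the 4 other NS rats were above every MT rat. The MT mean was 15.22 ± 0.08 (SD, n = 5) and the NS mean 15.48 ± 0.16 (SD, n = 5), a difference of -0.26 ± 0.09 (SE) or 0.835-fold. It had the smallest adjusted p of the 9 RNAs in limma, 0.195, and an exact permutation p of 0.0238.

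The Gja1 difference kept its sign in all 22 alternatives, from -0.32 without NS rat 7 to -0.13 with the slide as a fixed block, and its adjusted p lay between 0.139 and 1.00 there. Without slide 3 it was -0.17 (95% interval -0.36 to 0.02, adjusted p = 0.307 in limma). Its unadjusted P stayed below 0.05 in limma with each single rat left out, and not without slide 3 or with the slide as a block. The fixed block leaves the difference between MT rat 2 and the 3 NS rats of slide 2.

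Lcn2 encodes lipocalin 2, an iron-siderophore binding protein that reactive astrocytes secrete and neutrophils store, and lies at chr3:36078432-36081851. The values were 11.66, 11.87, 11.51, 11.85 and 12.13 in the MT rats and 12.46, 11.32, 12.14, 12.03 and 12.24 in the NS rats. NS rat 7 had the lowest value of all 10 and NS rat 6 the highest, so that the NS rats spanned the whole MT range. The NS values covered a 2.20-fold range and the MT values a 1.53-fold range. The difference was -0.24 ± 0.20 (SE, adjusted p = 0.581 in limma). It was -0.41 without NS rat 7, with an unadjusted P below 0.05 in limma, and -0.13 without NS rat 6. Without slide 3 it was -0.20.

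Cd44 encodes the hyaluronan receptor that fibrous and reactive astrocytes carry together with leukocytes, and lies at chr3:109610824-109699776. The values were 10.34, 10.45, 10.24, 10.41 and 10.08 in the MT rats and 10.18, 9.99, 10.17, 10.21 and 10.27 in the NS rats. MT rats 1, 2 and 4 were above every NS rat, and MT rat 5 was below all NS rats except rat 7. The difference was 0.14 ± 0.09 (SE, adjusted p = 0.459 in limma). It was 0.30 within slide 2, and 0.20 without MT rat 5, where limma gave an unadjusted P below 0.05.

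Steap4 encodes a metalloreductase induced by cytokines and lies at chr4:27032096-27054769. The values were 10.30, 10.41, 10.50, 10.19 and 10.90 in the MT rats and 10.68, 10.18, 10.54, 10.39 and 10.34 in the NS rats. MT rat 5 was the highest of the 10, and the remaining MT rats lay within the NS range. The difference was 0.03 ± 0.14 (SE, adjusted p = 0.924 in limma), with an interval of 0.821-fold to 1.27-fold. Without MT rat 5 it was -0.08. For the 3 reactivity genes measured, the differences were thus of both signs, and none had an unadjusted P below 0.05 in limma over all 10 rats.

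**Figure D2:**
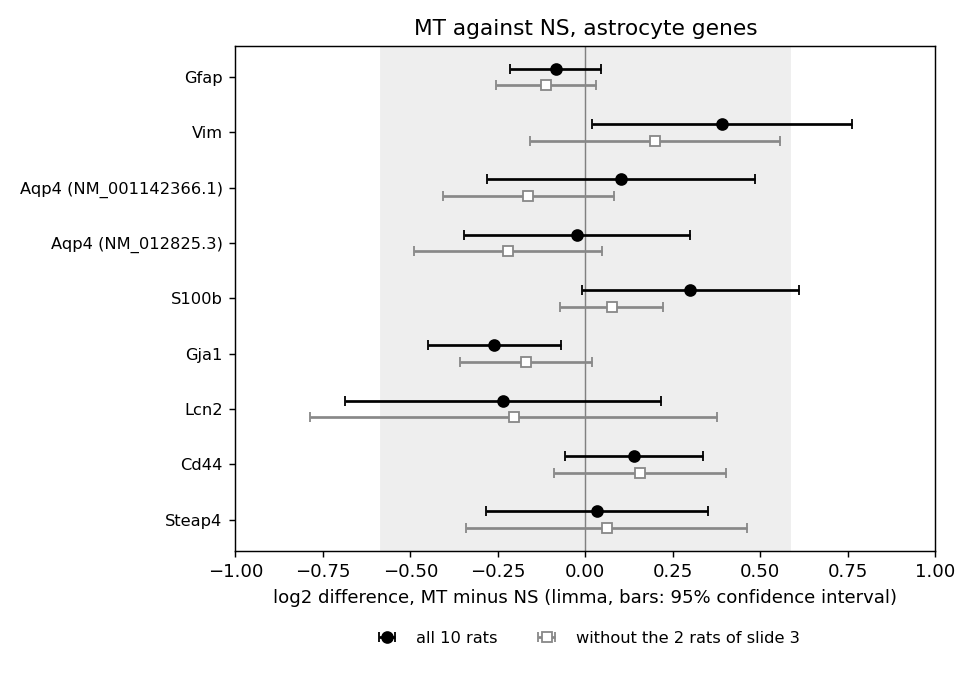
Difference in log2 intensity between MT and NS (horizontal axis) for each of the 9 astrocyte RNAs, with its 95% confidence interval in limma, over all 10 rats (filled circles) and without the 2 rats of slide 3 (open squares). The grey band marks a fold below 1.5 in either direction. All 9 differences lie inside the band, and those of Vim and S100b come closer to 0 without slide 3.

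The rats of slide 3 held an extreme of the NS values in some RNAs. A range without these 2 rats cannot be wider than over all 5. It shows only where the 2 rats lay and measures no spread within a slide. In Aqp4 (NM_001142366) the NS values covered a 1.74-fold range over all 5 rats and 1.04-fold without slide 3. In Vim the corresponding ranges were 2.06-fold and 1.63-fold. Lcn2 had the same 2.20-fold range either way, since both of its extremes were on slide 2. Median differences over the 9 RNAs were 0.03 with all rats and -0.11 without slide 3. With all rats the median over all mRNAs was -0.02, and without slide 3 the median over all RNAs was 0.0056.

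Related genes were grouped into 5 lists, 4 of astrocyte genes and 1 of the cytokine signals that act on astrocytes, with 61 genes and 62 RNAs tested. Of these 62 RNAs, 3 were higher and 2 lower in MT by the study's criteria, where 1.62% of all mRNAs were higher and 0.987% lower, and their median difference was 0.04. The list of astrocyte identity held 30 genes, of which 26 were tested with 27 RNAs, and none passed the criteria in either direction. It includes the glutamate transporter gene Slc1a3, at -0.06 (adjusted p = 0.699 in limma). The differences of the 27 RNAs lay between -0.43 and 0.38 with a median of -0.01. The 2 genes of this list with the smallest P were Fabp7 and Slc1a2.

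Fabp7 encodes the brain fatty acid-binding protein of radial glia and astrocytes. Its log2 intensities were 13.51, 13.51, 13.52, 13.49 and 13.67 in the MT rats and 13.97, 13.89, 14.09, 14.07 and 13.79 in the NS rats. Every MT rat was below every NS rat. The difference was -0.43 ± 0.08 (SE), 0.744-fold, with an adjusted p of 0.0658 in limma, and it was -0.35 without slide 3 (adjusted p = 0.166 in limma). Over the 22 alternatives it lay between -0.47 and -0.35, and within slide 2 MT rat 2 was 0.38 below the NS mean. The adjusted p lay between 0.0235 and 0.921 there. Slc1a2, the main glutamate transporter of astrocytes, was measured as 2 RNAs that lay on opposite sides. The RNA NM_001035233 differed by -0.31 ± 0.14 (SE, adjusted p = 0.296 in limma) and by -0.16 without slide 3, with NS rat 6 below every MT rat. The RNA NM_017215 differed by 0.24 ± 0.12 (SE, adjusted p = 0.347 in limma) and by 0.28 without slide 3, with the groups overlapping. It stayed positive in all 22 alternatives.

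Reactive astrocytes are commonly sorted into genes induced by most stimuli, genes induced by inflammation (A1) and genes induced by injury (A2). Of the genes induced by most stimuli, 6 of 7 were tested and none passed the criteria, with a median difference of 0.13. Cp, which encodes the copper-carrying ferroxidase ceruloplasmin, differed by 0.22 (adjusted p = 0.471 in limma) and by 0.12 without slide 3. Osmr, the oncostatin M receptor, differed by 0.14 (adjusted p = 0.636 in limma) and by -0.04 without slide 3, and it was well above background on 4 of the 5 NS arrays.

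All 10 genes of the A1 list were tested, at a list median of -0.0036. By the criteria 1 of them passed, where 2.6% of all mRNAs did. The 1 gene was C3, complement component 3, which microglia also make. Its values were 15.92, 16.08, 15.69, 16.07 and 16.04 in the MT rats and 16.59, 16.42, 16.82, 16.77 and 16.40 in the NS rats. Every MT rat was below every NS rat, at a difference of -0.64 ± 0.11 (SE), 0.642-fold, with an adjusted p of 0.06 in limma. Without slide 3 the difference was -0.51 (adjusted p = 0.166 in limma) and with 75th percentile scaling -0.46, both below 1.5-fold. Blocking on slide gave -0.39 (fixed) or -0.54 (random), again below 1.5-fold. Leaving out MT rat 3 or NS rat 8 alone also took the fold below 1.5, at -0.57 and -0.58.

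Of the 12 genes of the A2 list, 9 were tested, with 1 higher and 1 lower by the criteria and a median of 0.21. Over all mRNAs, 1.62% were higher and 0.987% lower. Cd14, the lipopolysaccharide co-receptor that macrophages and microglia also carry, read 10.44, 10.30, 10.33, 10.64 and 9.64 in the MT rats and 9.47, 9.33, 9.45, 9.11 and 8.50 in the NS rats. Every MT rat was above every NS rat, and MT rat 5 was the nearest to them. The difference was 1.09 ± 0.23 (SE), 2.14-fold, with an adjusted p of 0.0899 in limma, and 1.17 without slide 3. Slc10a6, a steroid sulfate transporter, read 6.68, 7.16, 6.94, 6.35 and 6.33 in the MT rats and 7.44, 7.85, 7.45, 7.37 and 7.43 in the NS rats. Here every MT rat was below every NS rat, at a difference of -0.82 ± 0.17 (SE, adjusted p = 0.093 in limma). Within slide 2 the Slc10a6 difference was -0.42, and with normexp background correction it was -0.56, both below 1.5-fold.

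The signals that drive astrocyte reactivity formed the last list, of 14 ligands, receptors and response genes, with 10 tested and a median difference of 0.30. Of these, 2 were higher by the criteria, Socs3 and Il1a, and none lower, where 1.62% of all mRNAs were higher and 0.987% lower. Socs3 is the feedback inhibitor that STAT3 induces. It read 6.62, 6.81, 6.29, 6.85 and 6.50 in the MT rats and 5.99, 5.81, 5.74, 5.81 and 6.04 in the NS rats. Every MT rat was above every NS rat, with MT rat 3 the nearest. The difference was 0.74 ± 0.12 (SE), 1.66-fold, with an adjusted p of 0.0467 in limma.

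Socs3 was thus the only RNA of the 62 past the adjusted threshold. Without slide 3 its difference was 0.67 with an adjusted p of 0.165, within slide 2 MT rat 2 was 0.86 above the NS mean, and with the slide as a random block the adjusted p was 0.243. With normexp correction its difference was 0.36, below 1.5-fold. Over the 22 alternatives its adjusted p lay between 0.0232 and 0.578.

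Il1a, which encodes interleukin-1α, an alarm cytokine of microglia and macrophages, read 9.07, 8.82, 7.92, 9.54 and 7.40 in the MT rats and 7.54, 7.91, 7.96, 7.42 and 5.57 in the NS rats. MT rats 3 and 5 lay within the NS range and NS rat 10 lay far below the other NS rats. The difference was 1.27 ± 0.53 (SE, adjusted p = 0.278 in limma), and without NS rat 10 it was 0.84 and no longer had an unadjusted P below 0.05 in limma. That P was also lost without MT rat 1, 2 or 4 or without NS rat 9, under either block on slide and by the methods' t-test. The following were chosen after their values were seen. Cntf, a ciliary neurotrophic factor that astrocytes and Schwann cells make, was lower in every MT rat than in every NS rat, at -0.43 ± 0.08 (SE, adjusted p = 0.0687 in limma). C1qa, a complement subunit of microglia, differed by -0.51 (adjusted p = 0.176 in limma) and by -0.27 without slide 3. Tnf differed by 0.86 (adjusted p = 0.347 in limma), and Cxcl10 of the list induced by most stimuli by 0.13 with a standard error of 0.82.

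**Figure D3:**
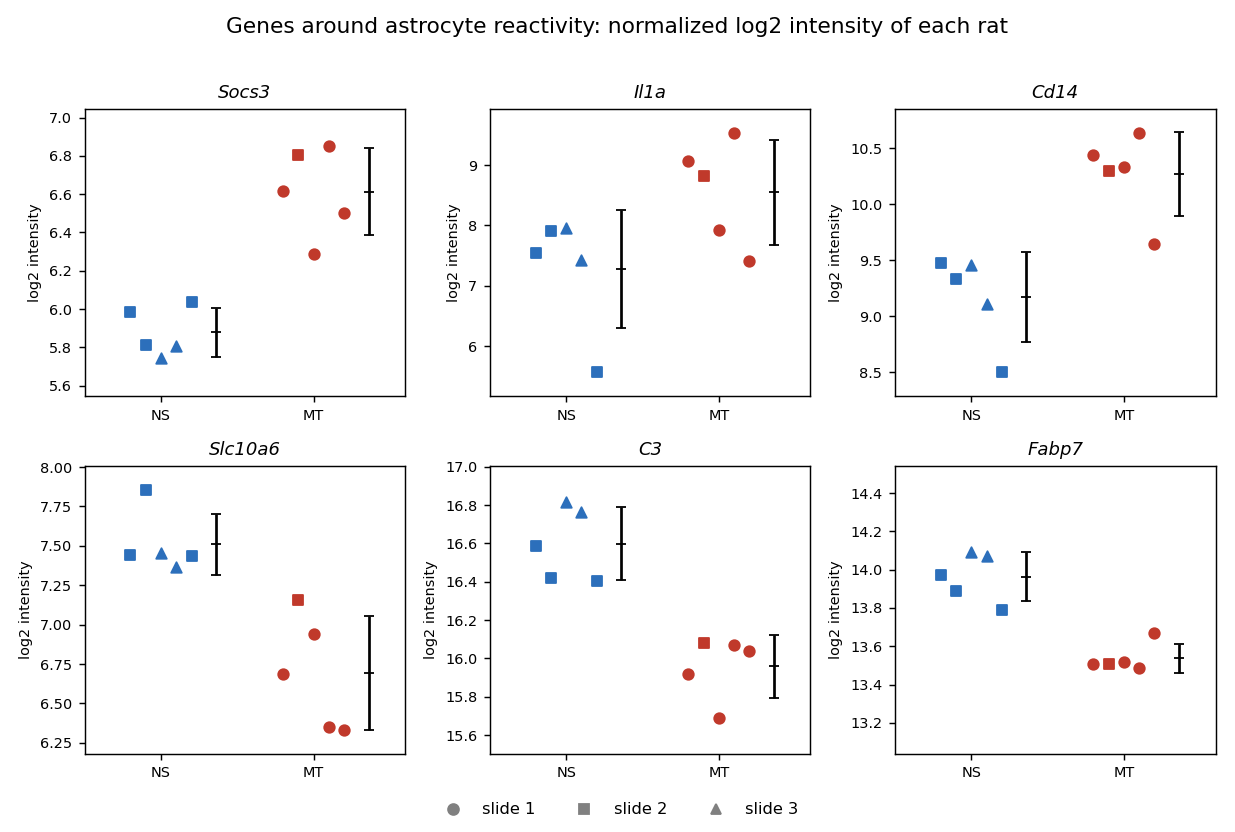
Normalized log2 intensity (vertical axis, with its own range in each panel) of 6 genes around astrocyte reactivity in the 5 NS rats (blue) and the 5 MT rats (red), with the shape of a point giving the slide and the bar the mean and SD of a group. Except in Il1a, the groups do not overlap, with MT above NS for Socs3 and Cd14 and below it for Slc10a6, C3 and Fabp7. The 6 genes were picked from the lists by the criteria or P in these same rats. Over all mRNAs, 5.79% had groups without overlap.

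Among the marker lists of other cells, those of microglia and neutrophils held genes past the criteria. Over all mRNAs, 1.62% were higher and 0.987% lower by these criteria. Of 11 microglial markers tested, none was higher and 3 were lower by the criteria, at a median of -0.34. The 3 were Tmem119 (-1.24, adjusted p = 0.0555 in limma), Trem2 (-0.72, adjusted p = 0.0634 in limma) and Gpr34 (-0.63, adjusted p = 0.0414 in limma), which are a membrane protein of resident microglia, a lipid-sensing receptor and a purinergic-type receptor. Without slide 3, 1 of the 11 passed, Tmem119 at -1.04, while Trem2 was at -0.55 and Gpr34 at -0.53. Gpr34 also fell short of 1.5-fold without MT rat 3 or without NS rat 8, at -0.58 each. The mean deviation of the 11 markers from their average over all rats ran from -0.37 to -0.01 in the MT rats and from 0.03 to 0.38 in the NS rats. Of 6 neutrophil markers tested, 2 were higher by the criteria, S100a8 (1.44, adjusted p = 0.121 in limma) and the G-CSF receptor gene Csf3r (0.91, adjusted p = 0.0636 in limma), at a median of 0.60. The mean deviation of the 6 ran from 0.20 to 0.42 in the MT rats and from -0.72 to -0.03 in the NS rats. Among the 6, Cxcr2 (0.64) was well above background on all 5 MT arrays but on only 2 NS arrays. It thus passed the filter through the MT arrays, and it enters this median and mean deviation. Lcn2, C3 and Cd14 are made by microglia or neutrophils too, and the part of other cells in their values was not tested.

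None of the markers of endothelial cells, meningeal fibroblasts, oligodendrocytes, neurons, ependymal cells or Schwann cells passed the criteria. The medians were -0.01 for 7 endothelial and 0.24 for 8 fibroblast markers, and both cell types make vimentin. In NS rat 6, where Vim was highest, the collagen genes Col1a2 (11.99) and Col3a1 (11.94) also had their highest values of the 10 rats. Of the other fibroblast markers, Dcn and Lum were highest there too, whereas Mgp, Fmod, Igf2 and Ogn were not. Ogn in NS rat 6 (10.49) was the lowest of the NS rats. The Col1a2 difference was 0.46 (adjusted p = 0.323 in limma), or 0.26 without slide 3, and the Col3a1 difference 0.88 (adjusted p = 0.324 in limma). Without NS rat 6 both passed the study's criteria, at 0.64 and 1.18. The part of fibroblast RNA in the Vim values was not tested.

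Of the remaining lists, 10 neuronal RNAs had a median of 0.19, with Eno2 at 0.45 and Rbfox3 at 0.27. Their mean deviation ran from 0.05 to 0.14 in the MT rats and from -0.21 to 0.01 in the NS rats. It was thus higher in every MT rat than in every NS rat. Of the 10, 4 had an unadjusted P below 0.05 in limma, all higher in MT, where 16.8% of all mRNAs did in either direction. These 4 were Eno2, Rbfox3 and Map2, the last as both array entries of a single RefSeq mRNA. The 10 RNAs are thus of 9 genes, and Map2 counts more than once in their median and mean deviation. Within slide 2, Eno2 was at 0.17 and Rbfox3 at 0.06, and without slide 3 they were at 0.40 and 0.29. The part of neuronal RNA in the astrocyte values was not tested. The 15 oligodendrocyte RNAs had a median of -0.04, with Ermn at -0.42 and Cnp at -0.21. The 5 ependymal RNAs had a median of -0.20, with Rarres2 at -0.24 and Dynlrb2 at -0.20. The 4 Schwann cell RNAs had a median of -0.14, with Pmp2 at -0.26 and Pmp22 at -0.15, and the endothelial genes Esam and Cldn5 differed by 0.16 and -0.13. Without slide 3, Pmp2 was at -0.09, Pmp22 at -0.05 and Cldn5 at 0.01.

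**Figure D4:**
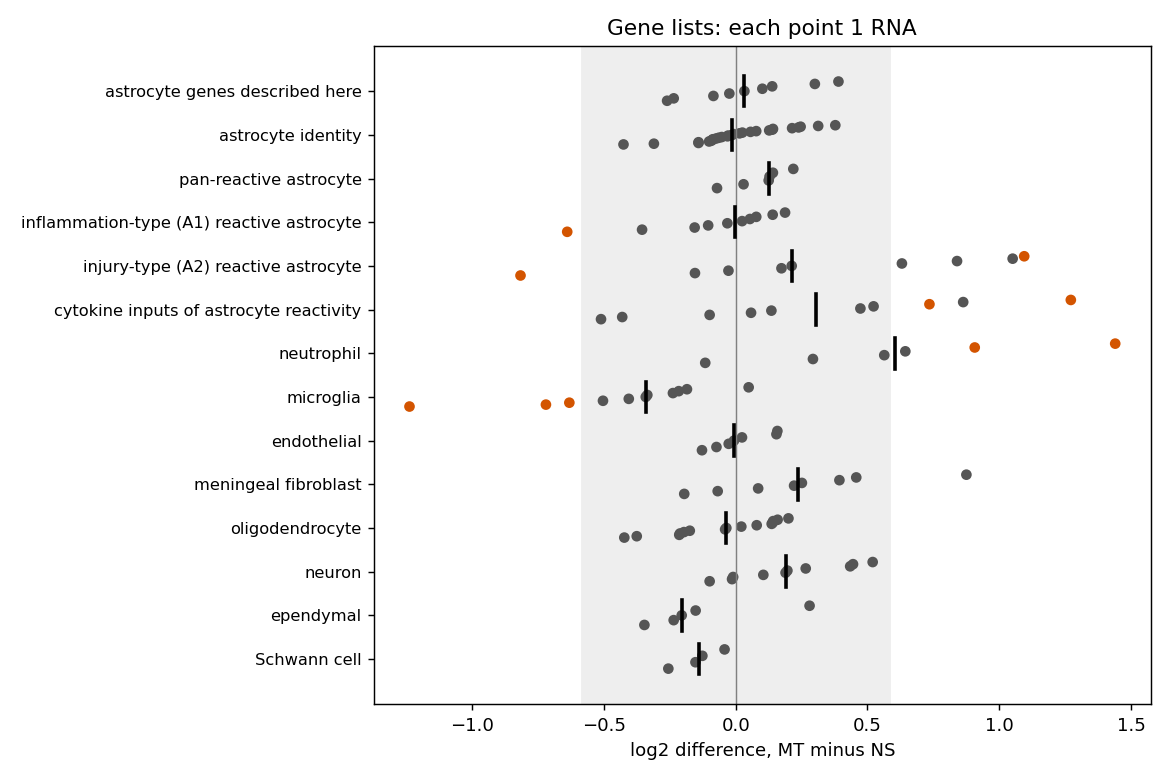
Difference in log2 intensity between MT and NS (horizontal axis) for the astrocyte genes, the 5 related lists and the 8 lists of other cell markers, with 1 point per RNA, a bar at the median of the list and orange for RNAs past the study's criteria. The grey band marks a fold below 1.5 in either direction. All astrocyte genes and all identity genes lie inside the band, whereas microglial points lie mostly below 0.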

How the data were processed

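Each of the 5 MT and 5 NS rats had 1 array. The authors read the arrays with Agilent Feature Extraction 11.0.1.1 (submitters' processing notes), and the deposited scanner output gives linear, background-subtracted spot intensities with quality flags. A second deposited file holds log2 intensities that the authors had quantile normalized in GeneSpring GX. Its columns correlated with the values used here at r of 0.993 to 0.999 across probes. The array was designed on rn4, so positions and symbols are those of the genes in RefSeq's GRCr8 annotation, which named 14264 of the 15313 mRNA accessions.

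Spot intensities, with a floor of 1, were taken to log2, quantile normalized and averaged per RNA, leaving out spots marked as outliers. Probes had to exceed background clearly on 5 or more arrays (in over 50% of their spots), which left 20284 RNAs, of which 13373 were mRNAs. MT and NS were compared in limma 3.58.1 (R 4.3.3, with the data.table package, version 1.17.8), with Benjamini-Hochberg adjustment over all RNAs. The methods write the fold criterion on the log2 scale, and it was read as a linear fold. Single genes were also tested by exact two-sided permutation. The number of arrays limits the precision, and 1 array per rat leaves technical spread within the rat unmeasured. In simulated arrays with the same group sizes and 20221 RNAs, 200 were changed by a log2 of 1. The simulation held no slide effect, so its counts do not cover the slide layout of the real arrays. The adjusted threshold recovered 145 of them beside 7 unchanged RNAs, and the study's criteria 183 beside 245.

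Alternatives were 75th percentile scaling, normexp correction (on median signals, since the files used here hold no mean signal), the deposited log2 values, no filter or one on all 10 arrays, outlier spots kept, the methods' t-test, a variance trend, slide as a block (fixed or random), slide 3 left out, single probes and each rat left out. The genes named were all members, and of each list up to 3 genes per direction with the smallest P among those past the criteria, or otherwise the 2 with the smallest P. The members and lists were chosen with earlier results of these data known. The behavioural tests and RT-qPCR of the study were not analysed here. Plots used matplotlib 3.10.9 (Python 3.11.15).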

Additional observations from a re-analysis of the deposited data

Results flagged for a closer look

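In 5 of 72 groups of 5 rats, among the genes named, 1 rat stood further from the other 4 than a Dixon ratio of 0.71 allows. Chance alone flags about 1 group in 20. For Gfap, NS rat 8 of slide 3 was the lowest NS rat at 16.25, with a ratio of 0.734. Quantile normalization gave NS rats 6 and 7 the same Gfap value, and likewise NS rats 9 and 10. Before it, NS rat 9 read lower (41297) than NS rat 8 (45361). For S100b, MT rat 5 was the lowest MT rat at 16.35, with a ratio of 0.74. There quantile normalization gave MT rats 1, 2 and 4 the same value. MT rat 5 also had the highest MT value of Fabp7, 13.67, with a ratio of 0.822. For Slc10a6, NS rat 7 was the highest NS rat at 7.85, with a ratio of 0.823. For Il1a, NS rat 10 was the lowest NS rat at 5.57, with a ratio of 0.777.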

How the results depend on the processing

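No paired analysis was possible because the MT rats are numbered 1 to 5 and the NS rats 6 to 10, so the groups share no number. None of the 8 genes Gfap, Vim, Aqp4, S100b, Gja1, Lcn2, Cd44 and Steap4 passed the study's criteria under any of the 22 alternatives. Of the 198 member values recomputed, 186 kept their sign and 12 did not. The 186 include alternatives that left every member difference as it was, so that no sign could change. These were both filter settings, outlier spots kept, the methods' t-test, the variance trend and single probes. The first Aqp4 RNA (NM_001142366) was at -0.10 with the slide as a fixed block, at -0.16 without slide 3 and between -0.024 and 0.18 with each rat left out in turn. The second (NM_012825) was at 0.041 with 75th percentile scaling and between -0.11 and 0.059 with each rat left out. With that scaling Gfap was at 0.092 and Steap4 at -0.0026, and Steap4 ran from -0.077 to 0.10 with each rat left out. Of the other genes, Osmr was at -0.039 and Cldn5 at 0.014 without slide 3, and Pmp22 was at 0.22 with the fixed block, at 0.0096 with the random block and between -0.24 and 0.020 with each rat left out.

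Of the 62 RNAs of the 5 lists, 5 passed the criteria. The number was 3 with normexp correction, 2 with the slide as a fixed block and 3 as a random block, and 4 to 9 with each rat left out, the 9 without NS rat 6. Over all RNAs, 555 passed the criteria, 353 higher and 202 lower. The number was 201 with normexp, 912 with no filter on dim probes, 349 when all 10 arrays had to be well above background, 337 with the fixed block, 328 with the random block and 426 to 867 with each rat left out. With 75th percentile scaling the split was 708 higher and 112 lower.

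In limma 40 RNAs passed the adjusted threshold. The number was 143 with normexp, 66 with the deposited table, 12 with no filter, 120 with the filter on all 10 arrays, 117 with a variance trend and 2 without slide 3. It was 0 with the slide as a fixed block (839 at an unadjusted P below 0.05) and 0 as a random block (1421). It ran from 0 to 84 with each rat left out, with 0 without MT rat 1 (2248 at an unadjusted P below 0.05) and 0 without NS rat 9 (2479). By the methods' t-test, 57 passed. The cause of these shifts was not tested, except that a filter changes how many RNAs are tested and a rat left out leaves fewer samples. The fixed block rests on MT rat 2 and 3 NS rats.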
